A study of Mus musculus with 6 samples.

Results

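The genes described here are those of the mouse major histocompatibility complex (MHC, symbols that start with H2-), of peptide supply and loading for antigen presentation, and of the response to interferon gamma, measured in whole liver. They were chosen by gene symbol, with earlier results of these data known. The rule took every probe whose platform symbol starts with H2-, and every probe for B2m, Tap1, Tap2, Tapbp, Psmb8, Psmb9, Psmb10, Nlrc5, Ciita, Cd74, Irf1, Gbp2, Gbp3, Gbp7, Irgm1, Igtp, Iigp1, Socs1 or Erap1. Gbp6 belongs to the same rule and was not analysed here. This gave 79 probes for 54 genes, of 25697 probes for 16593 genes on the array. By role, 24 genes encode class I heavy chains, 12 belong to the class II pathway, 9 to class I peptide supply and loading and 8 to the interferon gamma response, and H2-Ke6 carries an H2- symbol only for its place in the genome.

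The 2 groups were 3 livers of mice given Ad-MafG, an adenovirus made to overexpress the small Maf transcription factor MafG, and 3 livers of mice given the control virus Ad-Control, also called Ad-CMV. All 6 mice were wild-type C57BL/6, carried the virus for 5 days and were fasted for 4 to 6 h before the liver was taken, and each sample was 1 mouse. Both groups received an adenovirus, so uninfected liver is no part of the comparison, while neither the cells that took up each virus nor the promoter of Ad-MafG is stated in the labels. RNA was hybridised to Illumina BeadChip arrays on 1 slide, which report a mean bead intensity per probe.

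Between 47 and 50.8% of probes were detected on each array (detection p under 0.05), and the median raw intensity was 181.6 to 185.8 in Ad-MafG and 160.6 to 180 in Ad-Control. Of the 8827 genes tested, 875 passed the threshold (limma, adjusted p under 0.05), 555 higher and 320 lower in Ad-MafG; 63.4% of the calls were higher after quantile normalisation and 49.8% after median scaling. The 1 probe for Mafg itself was lower in Ad-MafG (log2 fold change -0.54, adjusted p = 0.0341), so the array gives no check of the labels through this gene, and every direction given here rests on the labels. Of the 8 hepatocyte markers all 8 were detected; their summed intensity was 130987 to 146239 in Ad-MafG and 146531 to 158163 in Ad-Control, and 0 of 8 passed the threshold, though all 8 had a log2 fold change below 0 (median -0.2, -0.34 for Alb, whose probe was dim, and -0.06 for Apoa1). In most of the genes described here Ad-Control 2 was the highest of the Ad-Control livers, so the class counts and many single values are also given without it. Where it was the highest, leaving it out must raise the log2 fold change. Those values therefore show its weight and are no separate evidence of a rise.

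MHC class I molecules, a heavy chain paired with B2m, sit on nearly all nucleated cells and show peptides of the cell's own proteins to CD8 T cells. The peptides are cut by the proteasome, carried into the endoplasmic reticulum by Tap1 and Tap2, trimmed by Erap1 and loaded with the help of Tapbp. Class II molecules show peptides from the endocytic route to CD4 T cells and are made mainly by professional antigen-presenting cells, which in liver include Kupffer cells, dendritic cells and B cells; the invariant chain Cd74 guards their groove until H2-DM exchanges it for peptide. Interferon gamma, acting in part through IRF1, induces both arms: Ciita switches on class II genes, and Nlrc5 is its counterpart for class I genes. In whole tissue, fewer cells of a type and less RNA per cell cannot be told apart.

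Class II and class I promoters share a compact enhancer whose X2 and Y boxes are bound by CREB/ATF and NF-Y proteins, while interferon-induced genes carry GAS and ISRE elements. The stretches printed here are the 170 bases before the start of transcription of 3 class II genes, 1 classical class I gene and 1 interferon gamma target, chosen to show the classes compared. They are from RefSeq on build GRCm38.p6 and run 5′ to 3′ along the gene's own strand. Capitals mark matches, on either strand, to the Y box TGATTGG, the X2-like TGACG (both strands overlapping in H2-Aa) or the ISRE-like GAAANNGAA.
H2-Aa, chr17:34287824-34287993, minus strand: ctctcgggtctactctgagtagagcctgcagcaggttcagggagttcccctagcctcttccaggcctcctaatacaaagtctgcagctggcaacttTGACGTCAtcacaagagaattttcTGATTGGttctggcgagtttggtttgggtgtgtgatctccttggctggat
H2-Eb1, chr17:34305697-34305866, plus strand: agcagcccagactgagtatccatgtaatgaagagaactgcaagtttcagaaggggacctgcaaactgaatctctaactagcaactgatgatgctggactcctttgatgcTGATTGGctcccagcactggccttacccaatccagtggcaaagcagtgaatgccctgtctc
H2-DMb1, chr17:34153021-34153190, plus strand: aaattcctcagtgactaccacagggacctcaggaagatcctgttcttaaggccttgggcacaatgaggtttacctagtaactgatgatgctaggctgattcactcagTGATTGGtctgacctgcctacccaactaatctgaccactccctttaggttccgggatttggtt
H2-D1, chr17:35262924-35263093, plus strand: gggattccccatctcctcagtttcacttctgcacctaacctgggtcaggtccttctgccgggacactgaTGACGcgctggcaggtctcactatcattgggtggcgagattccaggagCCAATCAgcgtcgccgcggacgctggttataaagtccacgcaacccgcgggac
Gbp2, chr3:142620493-142620662, plus strand: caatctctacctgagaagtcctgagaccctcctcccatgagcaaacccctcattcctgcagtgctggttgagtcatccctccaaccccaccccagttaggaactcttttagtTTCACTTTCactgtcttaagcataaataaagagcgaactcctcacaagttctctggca
The TGATTGG match begins 50 bases before the start in H2-Aa, 61 in H2-Eb1 and 63 in H2-DMb1. In H2-D1 the match lies on the opposite strand, 53 bases before the start. The X2-like match begins 74 bases before the start in H2-Aa and 101 in H2-D1, so the motifs lie further apart in H2-D1. Whether the H2-D1 match is the Y box of the shared enhancer was not tested.

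The promoter table held 41 of the 54 genes; H2-Ab1, Ciita, Cd74, Tap2 and Nlrc5 are named only. In the 250 bases before the start, the letters TGATTGG stood on either strand in 7 of 8 class II genes and 11 of 18 class I heavy chain genes. The share of all 32851 windows was 7.23%. These matches lay on the gene's own strand in the class II genes and on the opposite strand in the class I genes. How many of the class I matches are the enhancer's Y box was not tested. The X2-like motif stood in 1 of the 8 class II genes and 9 of the 18 class I genes, against 17.8% of windows. The ISRE-like motif stood in 6 of 7 interferon gamma response genes (7.13% of windows), and the GAS-like motif TTCNNNGAA in 3 of 7 (7.02%). These matches describe letters, not binding.

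Of the 54 genes, 35 passed the detection filter (detection p under 0.05 on at least 3 of 6 arrays) and were tested. After Ad-MafG 2 of them rose, the class II genes Ciita and H2-DMb1, and 1 fell, H2-Ke6. That is 3 of 35 beside 9.91% of all genes tested, with 6.29% higher and 3.63% lower, so the share of calls among these genes lay near the background. The classes differed in their values: the median log2 fold change was 0.91 for 7 class II genes, -0.07 for 12 class I heavy chains, -0.21 for 9 peptide supply and loading genes and -0.27 for 6 interferon gamma response genes, beside -0.02 for all genes tested.

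**Figure D1:**
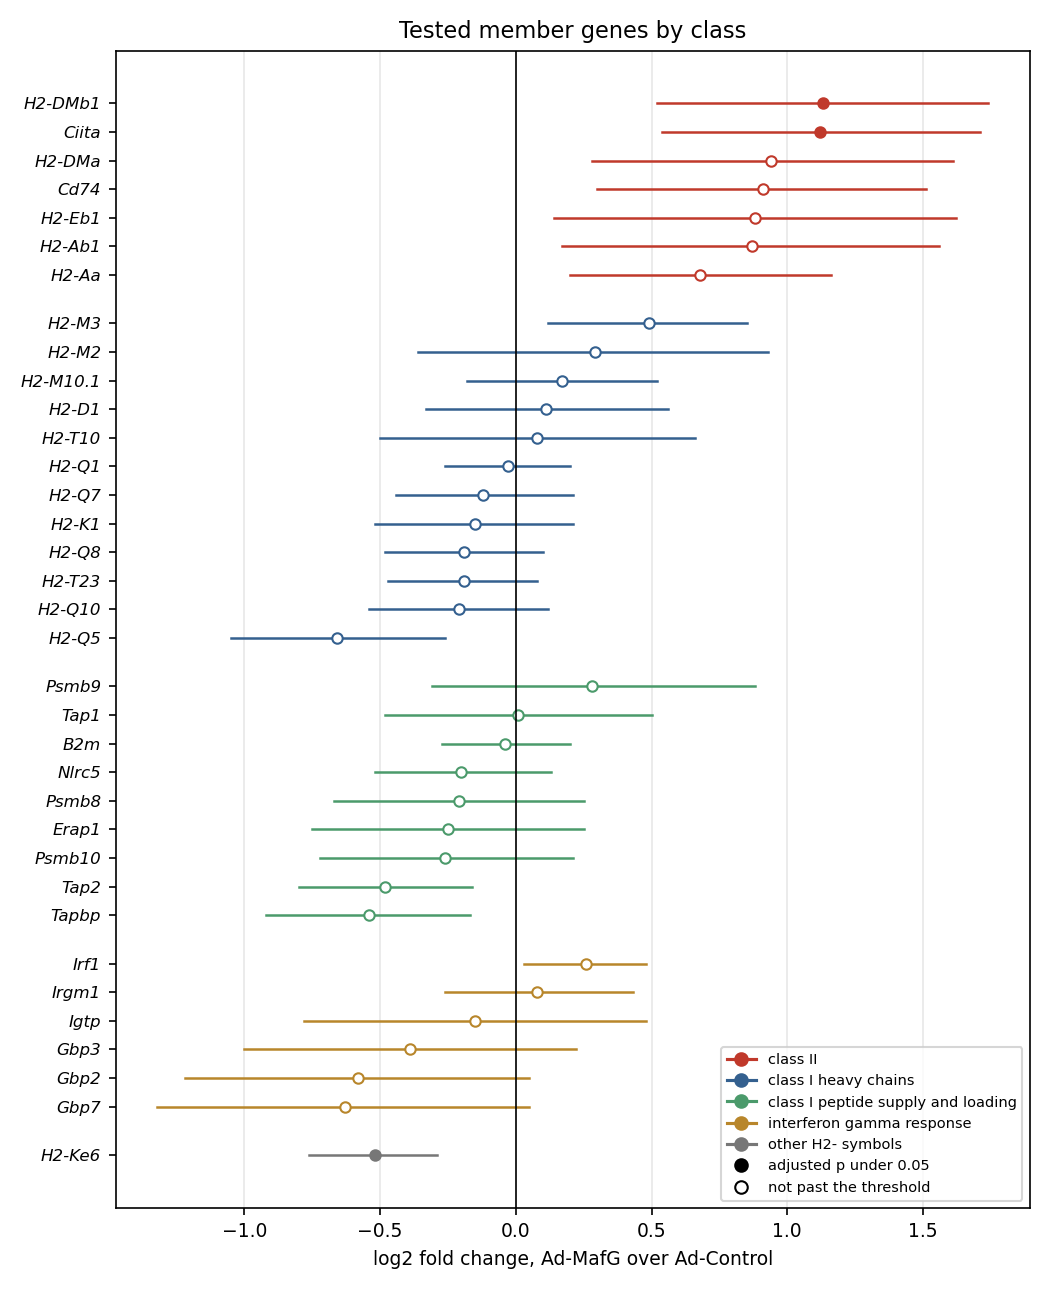
log2 fold change of Ad-MafG over Ad-Control (x axis) for the 35 tested genes, grouped by class, with 95% confidence intervals from limma as lines; filled points passed an adjusted p of 0.05. All 7 class II points lie between 0.68 and 1.13, while the class I heavy chains run from -0.66 to 0.49.

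Among class II genes, every tested member had its 3 Ad-MafG livers above its 3 Ad-Control livers, 7 of 7, where 18.3% of all genes tested were so separated upward. The p before adjustment was under 0.05 in all 7, where 29.8% of all genes had one, but 2 passed the adjusted threshold. Ciita, the transactivator that class II transcription depends on, gave raw intensities of 413.8, 414.2 and 464.5 in Ad-MafG livers, against 221.4, 301.8 and 191.2 in Ad-Control livers. The lowest Ad-MafG liver stood clear of the highest Ad-Control liver. On the normalised log2 scale Ciita averaged 8.04 ± 0.11 in Ad-MafG and 6.92 ± 0.53 in Ad-Control (SD, n = 3 each), a rise of 2.18-fold, or a log2 fold change of 1.12 ± 0.249 (SE; adjusted p = 0.0373). Ciita was dim, and the size of its rise depended on the processing. Over 16 alternative settings its log2 fold change ran from 0.61, without background correction, to 1.37, without Ad-Control 2.

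H2-DMb1, the beta chain of the peptide exchange factor H2-DM, gave raw intensities of 2325.6, 2109.6 and 2304.4 in Ad-MafG livers, against 933.5, 1348.9 and 602.2 in Ad-Control livers. The groups did not overlap, and the 3 Ad-Control livers were spread more widely than the 3 Ad-MafG livers. The rise of H2-DMb1 was 2.19-fold, or a log2 fold change of 1.13 ± 0.26 (SE; adjusted p = 0.0402). Over 16 alternative settings the adjusted p of H2-DMb1 ran from 0.0163 to 0.124 and passed the threshold in 9, and that of Ciita ran from 0.015 to 0.121 and passed in 9. H2-DMa, the alpha chain of the same factor, gave 3190.9, 3034.9 and 2962 in Ad-MafG livers, against 1229.2, 2381.2 and 949.4 in Ad-Control livers, which again did not overlap. The fit put H2-DMa at 0.94 on the log2 scale (adjusted p = 0.0769).

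The peptide-binding chains themselves did not pass the threshold. H2-Aa, the alpha chain of the I-A molecule, gave raw intensities of 7178.2, 7186.6 and 7564.1 in Ad-MafG livers, against 3681.7, 5884.4 and 3028.9 in Ad-Control livers (log2 fold change 0.68, adjusted p = 0.0758). H2-Ab1, its beta chain, gave 10847.1, 10847.9 and 10609.7 in Ad-MafG livers, against 5085.5, 9206.7 and 3393.8 in Ad-Control livers (log2 fold change 0.87, adjusted p = 0.104). In both genes the 3 Ad-MafG livers were nearly equal and the Ad-Control livers were not. The 4 probes for H2-Ab1 gave log2 fold changes from 0.81 to 0.91, so the value does not hang on 1 probe.

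H2-Eb1, the beta chain of I-E, gave raw intensities of 6814, 7185.5 and 6383.5 in Ad-MafG livers, against 3224.6, 5524.2 and 1967.2 in Ad-Control livers (log2 fold change 0.88, adjusted p = 0.114). Its partner H2-Ea, which C57BL/6 mice are known not to express, was detected on 0 of 6 arrays, with raw intensities of 135.9 to 145 in Ad-MafG and 122.1 to 131.1 in Ad-Control. Cd74 gave 19573.2, 21970.8 and 19298 in Ad-MafG livers, against 10015.5, 16094.5 and 7025.9 in Ad-Control livers (log2 fold change 0.91, adjusted p = 0.0655). Both groups of Cd74 values stood apart, and its second probe gave a log2 fold change of 0.87. H2-DMb2, H2-Eb2, and the H2-DM inhibitor chains H2-Oa and H2-Ob were not tested; each was detected on at most 2 of 6 arrays.

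**Figure D2:**
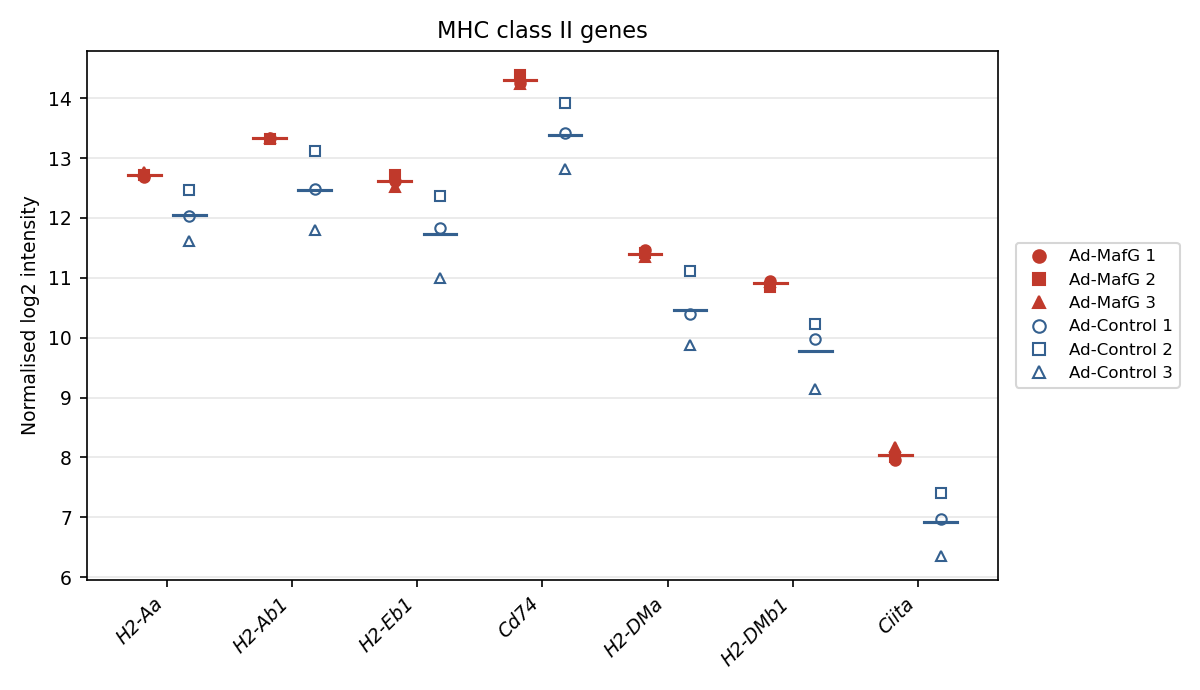
Normalised log2 intensity (y axis) of the 7 tested class II genes in each liver, with Ad-MafG as filled and Ad-Control as open symbols and group means as bars. The Ad-MafG livers cluster tightly (SD 0.02 to 0.11), and in every gene Ad-Control 2 is the highest and Ad-Control 3 the lowest Ad-Control liver (SD 0.43 to 0.7).

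The order of the Ad-Control livers was the same in all 7 class II genes, with Ad-Control 2 highest and Ad-Control 3 lowest. Ad-Control 2 was also the highest Ad-Control liver in 8 of 9 supply and loading genes, in 6 of 6 interferon gamma response genes and in 7 of 12 class I heavy chains, against 35.3% of all genes tested. Its class II values exceeded the mean of the other Ad-Control livers by a median of 0.81 on the log2 scale. Without Ad-Control 2, all 7 class II genes passed the threshold, with a median log2 fold change of 1.2 and adjusted p values of 0.0146 to 0.0318. In that fit 8.32% of all genes were called higher. Without Ad-Control 3, the median was 0.62 and H2-DMb1 alone of the 7 passed, beside 2.48% of all genes called higher. Without Ad-Control 1 or any 1 Ad-MafG liver 0 of the 7 passed, beside 1.45 to 3.21% of all genes called higher.

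Class I heavy chains showed no common shift. Of 12 tested, 0 passed the threshold, 5 had a log2 fold change above 0 and 7 below, and 2 had an unadjusted p under 0.05. The classical gene H2-K1 had normalised log2 intensities of 10.41, 10.57 and 10.27 in Ad-MafG livers, against 10.78, 10.65 and 10.28 in Ad-Control livers, a log2 fold change of -0.15 (95% interval -0.52 to 0.21, adjusted p = 0.542). H2-D1, the other classical gene, had 11.95, 11.42 and 11.65 in Ad-MafG livers, against 11.57, 11.84 and 11.26 in Ad-Control livers, a log2 fold change of 0.11 (95% interval -0.33 to 0.56, adjusted p = 0.726). Both genes overlapped between the groups. Class I genes are close in sequence, so probes may share signal and the separate values are uncertain.

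Among non-classical heavy chains, H2-M3, which presents formylated bacterial peptides, was the 1 gene with all Ad-MafG livers above all Ad-Control livers. Its normalised log2 intensities were 9.43, 9.5 and 9.39 in Ad-MafG livers, against 9.05, 9.18 and 8.62 in Ad-Control livers (log2 fold change 0.49, adjusted p = 0.0871). H2-Q5 was the 1 gene separated the other way, with 7.52, 7.53 and 6.97 in Ad-MafG livers, against 8.03, 8.08 and 7.89 in Ad-Control livers (log2 fold change -0.66, adjusted p = 0.0521). Raw intensities of H2-Q5 overlapped between the groups. Upward separation held for 18.3% of all genes and downward for 17.9%, so 1 of 12 each way is below the background. H2-T23, whose product presents leader peptides of other class I chains to NK cell receptors, had a log2 fold change of -0.19, and H2-Q10, a class I molecule secreted by liver, -0.21. A second H2-T23 probe gave -0.37 (adjusted p = 0.148). Its Ad-MafG livers all lay below its Ad-Control livers on the normalised scale, though raw intensities overlapped. The remaining tested chains (H2-Q1, H2-Q7, H2-Q8, H2-T10, H2-M2 and H2-M10.1) lay between -0.19 and 0.29. H2-M2 and H2-M10.1, both among the chains above 0, were near background. They were detected on 3 Ad-MafG arrays each but on 2 and 1 Ad-Control arrays. With detection p under 0.01 required on all arrays of a group, neither was tested and the class I median was -0.14. After median scaling H2-Q5 and H2-T23 passed the threshold as lower (log2 fold changes -0.66 and -0.52), and without Ad-Control 2 H2-M3 passed as higher (0.61). Of 16 alternative settings H2-Q5 passed in 5, and H2-T23 and H2-M3 in 1 each. Not tested for low signal were H2-Bl, H2-M1, H2-M10.2, H2-M10.3, H2-M10.4, H2-M10.5, H2-M10.6, H2-M11, H2-M9, H2-Q2, H2-T24 and H2-T3.

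Per liver, the mean of the class II genes relative to the Ad-Control mean was 0.93, 0.94 and 0.93 log2 units in Ad-MafG, against 0.05, 0.55 and -0.6 in Ad-Control. The same mean for class I heavy chains was 0, 0.05 and -0.16 in Ad-MafG, against 0.06, 0.15 and -0.21 in Ad-Control. The class II groups stood apart and the class I groups overlapped. Class II minus class I within each liver was 0.92, 0.9 and 1.08 in Ad-MafG, against -0.01, 0.4 and -0.39 in Ad-Control. The difference between the 2 class medians was 0.98 log2 units. These class means are a description and were given no test.

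**Figure D3:**
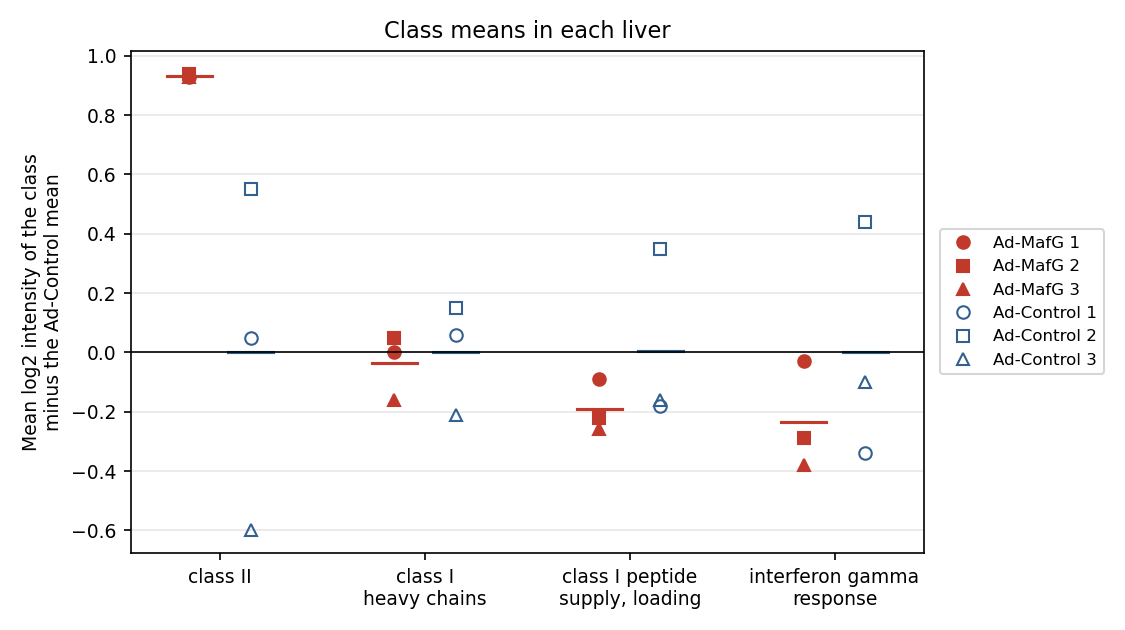
Mean log2 intensity of each class in each liver, minus the Ad-Control mean (y axis), with Ad-MafG as filled and Ad-Control as open symbols and group means as bars. Class II lies between 0.93 and 0.94 in Ad-MafG, above all Ad-Control livers, while the other 3 classes overlap between the groups and Ad-Control 2 is their highest liver.

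The genes that supply and load class I peptides gave 0 of 9 past the threshold, with 7 of 9 below 0. B2m, the shared light chain, had 15.06, 14.95 and 15.03 in Ad-MafG livers, against 15.16, 15.03 and 14.96 in Ad-Control livers, a log2 fold change of -0.04 (95% interval -0.27 to 0.2). The peptide transporter subunit Tap1 had 8.38, 8.24 and 8.11 in Ad-MafG livers, against 7.85, 8.69 and 8.15 in Ad-Control livers, a log2 fold change of 0.01 (0.24 without Ad-Control 2). The groups overlapped in both genes. Nlrc5, the class I transactivator, had 8.55, 8.76 and 8.55 in Ad-MafG livers, against 8.68, 9.07 and 8.71 in Ad-Control livers (log2 fold change -0.2, adjusted p = 0.38). Its 95% interval ran from -0.52 to 0.13, and without Ad-Control 2 its log2 fold change was -0.07. The values for Ciita and Nlrc5 had opposite signs, but the Nlrc5 interval spans 0. The difference between them was not tested.

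Tap2 and Tapbp were the 2 genes of this class with all Ad-MafG livers below all Ad-Control livers on the normalised scale. Tap2, the other transporter subunit, had 9.96, 9.86 and 9.79 in Ad-MafG livers, against 10.19, 10.61 and 10.24 in Ad-Control livers (log2 fold change -0.48, adjusted p = 0.0684). Tapbp (tapasin), which bridges the transporter and empty class I molecules, had 9.6, 9.31 and 9.31 in Ad-MafG livers, against 9.94, 10.22 and 9.69 in Ad-Control livers (log2 fold change -0.54, adjusted p = 0.0722). Raw intensities of both genes overlapped between the groups. After median scaling both passed the threshold as lower (Tap2 -0.55 and Tapbp -0.58), where 587 of all genes were called lower, against 320 as reported. Without Ad-Control 2 neither passed, with Tap2 at -0.35 and Tapbp at -0.41. Of 16 alternative settings Tap2 passed in 3 and Tapbp in 4. When every detected probe was tested, 4 of 53 member probes passed, against 9.8% of all 12145 probes; the fourth, beside those of Ciita, H2-DMb1 and H2-Ke6, was a second Tapbp probe (log2 fold change -0.65, adjusted p = 0.0322).

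The immunoproteasome subunits, which interferon gamma swaps into the proteasome, had no common sign. Psmb8 had 8.99, 9.08 and 9.22 in Ad-MafG livers, against 9.14, 9.76 and 9.03 in Ad-Control livers (log2 fold change -0.21, adjusted p = 0.508). Psmb9 had 12.05, 11.96 and 11.95 in Ad-MafG livers, against 11.29, 12.33 and 11.49 in Ad-Control livers (log2 fold change 0.28, adjusted p = 0.491). Ad-Control 2 was the highest of all 6 livers in both. Psmb10 had a log2 fold change of -0.26 and Erap1 of -0.25. Without Ad-Control 2, Psmb9 passed the threshold at a log2 fold change of 0.6 (adjusted p = 0.0292).

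Of the interferon gamma response genes, 0 of 6 passed the threshold, with 2 above 0 and 4 below. Irf1, a transcription factor that the cytokine induces, had 12.51, 12.45 and 12.44 in Ad-MafG livers, against 12.15, 12.29 and 12.19 in Ad-Control livers (log2 fold change 0.26, adjusted p = 0.122). It was the 1 gene of this class with separated groups. Its other 4 detected probes gave log2 fold changes from 0.02 to 0.29.

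The guanylate-binding proteins are GTPases that attack pathogen vacuoles. Gbp2 had 12.67, 12.24 and 12.29 in Ad-MafG livers, against 12.64, 13.61 and 12.7 in Ad-Control livers (log2 fold change -0.58, adjusted p = 0.198). Gbp3 gave a log2 fold change of -0.39 and Gbp7 of -0.63. In all 3 genes Ad-Control 2 was the highest liver of the 6, and Ad-Control 1 lay within the range of the Ad-MafG livers. Ad-Control 3 lay within that range for Gbp3 and just above it for Gbp2 and Gbp7. Against Ad-Control 1 and 3 alone the log2 fold changes were -0.27 for Gbp2, -0.09 for Gbp3 and -0.33 for Gbp7. A second detected Gbp2 probe gave -1.11 (adjusted p = 0.0898), with all Ad-MafG livers below all Ad-Control livers on the normalised scale. Raw intensities of this probe overlapped between the groups. Ad-Control 2 was its highest liver, at 10.35 against 8.82 and 9.31 in Ad-Control 1 and 3. The immunity-related GTPases Igtp and Irgm1 had log2 fold changes of -0.15 and 0.08 (0.1 and 0.2 without Ad-Control 2, -0.37 and -0.22 after median scaling), and the 3 probes for Irgm1 ran from -0.25 to 0.08. Iigp1, a GTPase of the same family, and Socs1, the feedback inhibitor of the pathway, were too dim to test. Without Ad-Control 2 the median of the 6 genes was 0.01, and 0 of 6 passed. Under the other alternatives the class median stayed below 0, from -0.5 without Ad-Control 1 to -0.08 with array weights.

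**Figure D4:**
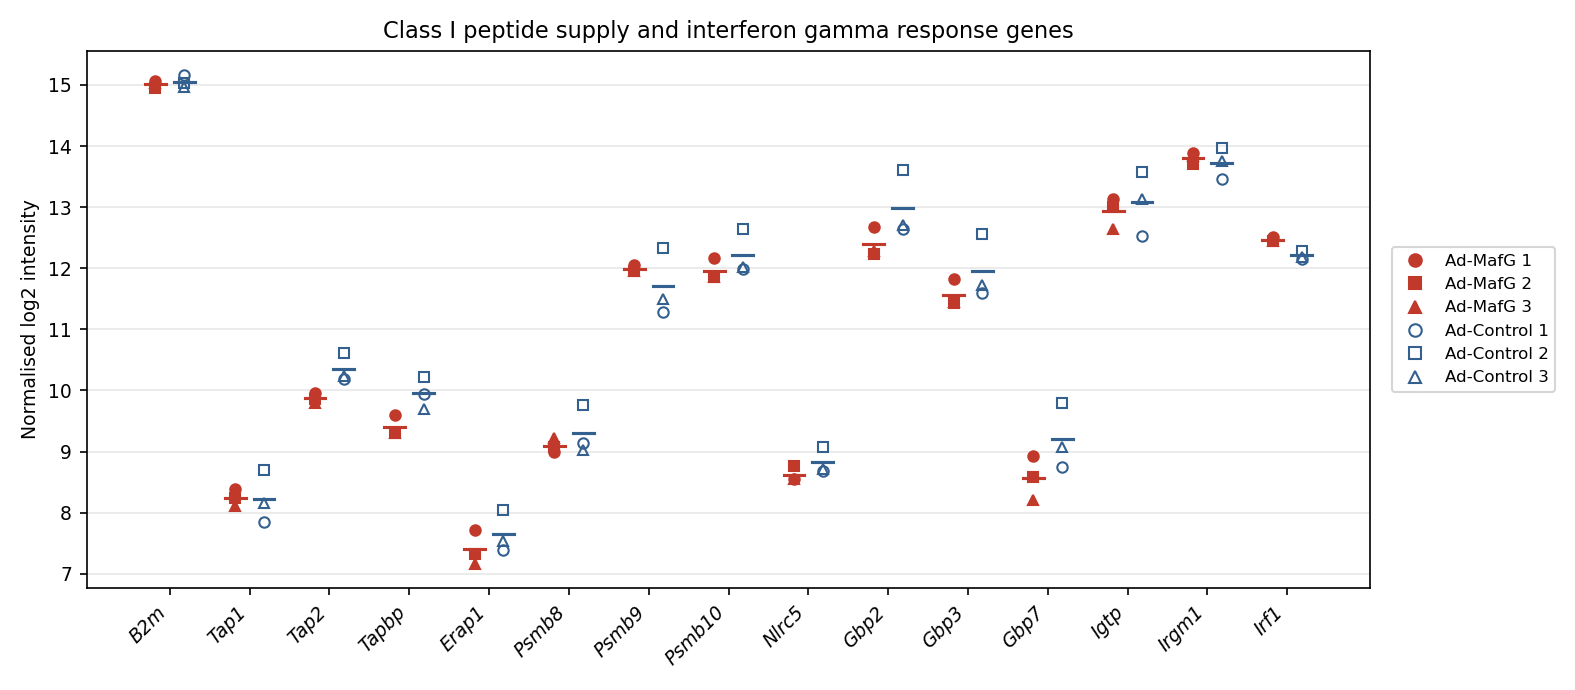
Normalised log2 intensity (y axis) in each liver of the 9 class I supply and loading genes and the 6 interferon gamma response genes, with Ad-MafG as filled and Ad-Control as open symbols and group means as bars. Ad-Control 2 (open square) is the highest Ad-Control liver in 14 of the 15 genes, all but B2m.

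H2-Ke6, a steroid dehydrogenase gene within the H2 region that encodes no MHC molecule, fell. Its raw intensities were 5256.8, 5399.7 and 4742.3 in Ad-MafG livers, against 6202.2, 6731.4 and 6374.9 in Ad-Control livers. The groups did not overlap. The log2 fold change was -0.52 (SE 0.1, adjusted p = 0.0262), and over 16 alternative settings the adjusted p ran from 0.00459 to 0.0903, passing in 10.

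Of 11 other genes of the class II pathway tested, 4 rose and 0 fell, beside 6.29% of all genes higher and 3.63% lower: Ifi30, a thiol reductase that unfolds antigens (log2 fold change 1.33, adjusted p = 0.0169), Lgmn, an asparagine endopeptidase (0.97, adjusted p = 0.0213), Ctss, the protease that trims the invariant chain (0.65, adjusted p = 0.0203), and Cd86, a costimulatory ligand (0.66, adjusted p = 0.0465). Ifi30 had 11.3, 11.54 and 11.74 in Ad-MafG livers, against 10.47, 10.39 and 9.74 in Ad-Control livers. The groups of Ifi30 did not overlap. Of 16 alternative settings Ifi30 and Lgmn passed in 13 each, Ctss in 11 and Cd86 in 7. All 4 passed without Ad-Control 2, where 8.32% of all genes were called higher. The endosomal protease Ctsl had -0.18 (adjusted p = 0.654) and the costimulatory ligand Cd80 0.28. Factors that bind class II promoters gave smaller values, from -0.31 for Nfyb to 0.37 for Rfxank, and 0 of the 5 tested (Nfya, Nfyb, Nfyc, Rfxank and Rfxap) passed. Of 11 other genes listed with class I loading, 0 passed, with 7 above 0 and 4 below. That list also held genes that do not load peptides, among them Sppl2a (-0.31, adjusted p = 0.138) and the proteasome subunits Psmb5, Psmb6 and Psmb7.

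Of 10 interferon gamma signalling genes tested 1 rose, a share near the 6.29% of all genes called higher. It was Irf8, a transcription factor of myeloid cells, with 9.7, 9.34 and 9.46 in Ad-MafG livers, against 8.87, 8.99 and 8.54 in Ad-Control livers (log2 fold change 0.7, adjusted p = 0.0376). On the log2 scale the receptor chain Ifngr1 differed by 0.76 (adjusted p = 0.0507) and its partner Ifngr2 by -0.07. The kinases Jak1 and Jak2 had -0.16 and 0.26. Ifng itself was faint, detected on 2 Ad-MafG and 1 Ad-Control arrays, with a log2 fold change of 0.25. Of 12 other interferon gamma targets, 0 passed, with a median log2 fold change of -0.08. Cxcl9, a chemokine for T cells, had -0.56, Gbp11 -1.03 and the adhesion molecule Icam1 0.54; these 3 were picked after their values were seen. After median scaling Cxcl9 and Gbp11 passed as lower (-0.88 and -1.03). Without Ad-Control 2 they were at -0.29 and -0.73, neither past the threshold, and Icam1 passed as higher (0.73).

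**Figure D5:**
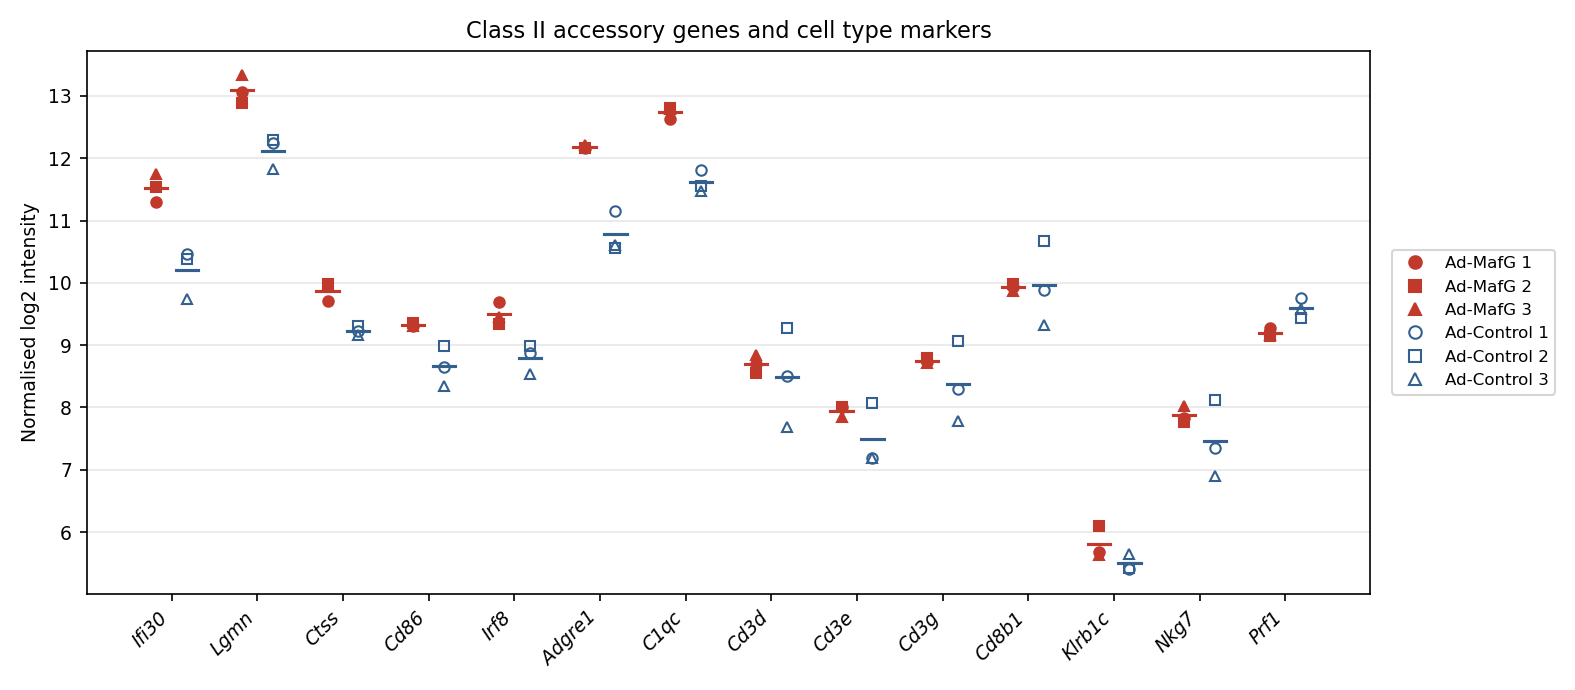
Normalised log2 intensity (y axis) in each liver of class II accessory genes, Irf8, the macrophage markers Adgre1 and C1qc and the 7 tested T and NK cell markers. Ad-MafG livers are filled and Ad-Control livers open symbols, with group means as bars. The macrophage markers drawn are ones called higher. Of all 9 tested macrophage markers 6 lay above 0 and 3 below, and those below (Cd163 -1.24, Timd4 -1.48 and Marco -1.06) are not drawn. The groups stand apart for the first 7 genes, and in Cd3d, Cd3g, Cd8b1 and Nkg7 Ad-Control 2 is the highest and Ad-Control 3 the lowest of the 6 livers; Prf1 is highest in Ad-Control 1, and among the Ad-Control livers Klrb1c is highest in Ad-Control 3.

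Markers of the cells that carry class II molecules moved in part. Among the 9 tested markers of Kupffer cells and macrophages 4 were called higher (6.29% of all genes) and 1 lower (3.63%). The higher ones were Adgre1 (log2 fold change 1.4, adjusted p = 0.00993) and the complement genes C1qa (0.77), C1qb (0.98) and C1qc (1.13), and the lower one was the scavenger receptor Cd163 (-1.24, adjusted p = 0.0379). The summed intensity of all 9 was 23223 to 25862 in Ad-MafG and 12156 to 15484 in Ad-Control. This linear sum is carried by the brightest markers and mostly repeats the genes called higher. In Ad-MafG livers C1qb, C1qc and Adgre1 averaged 13.04, 12.75 and 12.18 on the log2 scale. Cd163, Marco and Timd4, which lay lower than in Ad-Control, averaged 7.03, 7.06 and 6.27. The remaining tested markers, Clec4f, Vsig4, Timd4 and Marco, had log2 fold changes of 0.27, 0.24, -1.48 and -1.06, none past the threshold. Timd4 rested on 1 liver, with 5.39, 8.26 and 5.17 in Ad-MafG, against 8.12, 7.12 and 8.02 in Ad-Control, and passed as lower without Ad-MafG 2 (-2.47, adjusted p = 0.0275, against 0.0275 to 0.55 over all alternatives). Ad-Control 2 was the highest Ad-Control liver for Marco (8.37, against 7.8 and 8.2) and for none of the other tested macrophage markers. The part of macrophage number in the class II values was not tested.

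Dendritic cell markers gave 0 of 3 past the threshold, with sums of 365 to 479 in Ad-MafG and 295 to 397 in Ad-Control. Batf3 had a log2 fold change of 0.9 with all Ad-MafG livers above all Ad-Control livers (adjusted p = 0.125), Clec10a 0.16 and Siglech -0.31. Of this list 8 of the 11 on the array were not tested, with Itgax detected on 1 of 6 arrays and Flt3, Xcr1 and Cd209a on none. Of 7 B cell markers 1 was tested, Cd79b (log2 fold change -0.08), with 91 to 127 in Ad-MafG and 101 to 148 in Ad-Control; Cd79a and Pax5 were detected on none. T and NK cell markers gave 0 of 7, with sums of 2937 to 2973 in Ad-MafG and 2150 to 4077 in Ad-Control, and Cd4 and Cd8a were detected on none. Cd3d and Cd3e had log2 fold changes of 0.21 and 0.46. The sums of T and NK cell markers and of monocyte and neutrophil markers were both highest in Ad-Control 2 and lowest in Ad-Control 3. That was the order of the class II genes among the Ad-Control livers. The part of either list in the class II spread was not tested. Without Ad-Control 2, Cd3e, Cd3g and Nkg7 passed as higher (log2 fold changes 0.76, 0.71 and 0.75) and Prf1 as lower (-0.47). In that same fit all 7 class II genes passed and 8.32% of all genes were called higher. Monocyte and neutrophil markers gave 0 of 5 (1904 to 2140 in Ad-MafG and 1275 to 2979 in Ad-Control), with Ccr2 and Mpo detected on none. S100a8 had a log2 fold change of 0.79 with separated groups (adjusted p = 0.0533, and 1.04 and past the threshold without Ad-Control 2), while Ly6c1 had -0.69 (-0.14 without Ad-Control 2) and the other 3 were between 0.04 and 0.22. Sinusoidal endothelium markers gave 0 of 7 (12398 to 14237 in Ad-MafG and 10421 to 11782 in Ad-Control), with 6 of 7 above 0, Stab1 at -0.1 and Stab2 at 0.02. Lyve1 had a log2 fold change of 1.05 with separated groups (adjusted p = 0.0542) and passed the threshold without Ad-Control 2 (0.73, adjusted p = 0.0404); over all alternatives its adjusted p ran from 0.0255 to 0.168. The part of these cell types in the class II values was not tested.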

How the data were processed

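Total RNA of 6 whole livers, 3 Ad-MafG and 3 Ad-Control, was measured on Illumina BeadChip arrays, all on 1 slide; groups came from the sample labels. The deposited non-normalized table holds, per the file headers, a mean bead intensity and a detection p-value for each probe and array. A further table deposited by the authors gives scaled intensity after background subtraction, each column following its own array on a linear, uncentred scale; how it was scaled is not stated in the labels or headers. It served as an alternative.

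The non-normalized table was processed with limma 3.58.1 in R 4.3.3: normexp background correction fitted on the detection p-values, then an added offset of 16, log2 and quantile normalisation. The filter kept 12893 of 25697 probes, those whose detection p was under 0.05 on 3 or more arrays. By the platform annotation 23978 probes have 1 symbol and 1719 have none. The brightest probe stood for each gene, giving 8827 genes. Groups were compared with lmFit and eBayes, two-sided, with Benjamini-Hochberg adjustment over all genes and a threshold of 0.05. Only 3 mice a group limit the precision. Intervals are 95%. Marker sums add normalised intensities on the linear scale. The fits were tested on simulated data.

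Members, lists and tests were chosen with earlier results of these data known. Every tested member is described or counted; of the other lists, genes past the threshold and a few fixed by name are given. All 54 member genes matched RefSeq by gene number. Alternatives changed the background correction, scaling, filter, variance model, array weights, probe choice, replicate block or arrays used.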

Additional observations from a re-analysis of the deposited data

How the results depend on the processing

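The class II median log2 fold change stayed above 0 and above the class I median under every alternative run, and no result changed its direction past the threshold, but counts of calls moved. All genes past the threshold, 875 as reported, numbered 1316 without background correction and 1319 with a trended, robust variance model. Member genes, 3 as reported, numbered 9 without background correction, 7 with median scaling, 1 without the detection filter, 6 with the trended model, 6 with array weights and 5 with the mean of a gene's probes. Class II genes past the threshold, 2 as reported, numbered 5 without background correction, 1 with the authors' scaled values, 0 without the filter and 5 with array weights. Member probes, 4 as reported, numbered 11 without background correction, 9 with median scaling, 2 with the authors' values, 2 without the filter, 8 with the trended model and 9 with array weights. Leaving out 1 array at a time gave 159 to 1169 genes, 0 to 10 member genes, 0 to 7 class II genes, 0 to 15 member probes and a class II minus class I difference of 0.75 to 1.29; the upper end of each was without Ad-Control 2. Same-numbered livers correlated at 0.035, -0.138 and -0.125 in their deviations from the group means, so the numbers share no pairing; with the replicate block 141 genes, 0 member genes, 0 class II genes and 0 member probes passed. The cause of these moves was not tested, beyond the fewer arrays in the fits that left 1 out. Signal near background limits the 19 members not tested.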
